A study of Mus musculus with 6 samples.

Results

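The p53 targets and cell-cycle inhibitors described here are 10 genes, taken by symbol out of 56305 genes in the RNA-Seq table of WT and Vps15LKO livers. They are Cdkn1a, Cdkn2a and Cdkn2b, which encode inhibitors of cyclin-dependent kinases (CDKs), and Mdm2, Ccng1, Trp53inp1, Phlda3, Eda2r, Bax and Zmat3, which are targets of the transcription factor p53. All 10 Ensembl identifiers were found in the table. The table holds 1 library from each of 6 livers, 3 of WT and 3 of Vps15LKO males aged 5 weeks, which had free access to food and whose livers were taken at Zeitgeber time 6 (ZT6). Vps15LKO mice are AlbCre+;Vps15 f/f animals, in which Cre under the albumin promoter deletes Vps15, the regulatory subunit of class 3 PI3K, in hepatocytes and in other cells that have used this promoter, while the remaining liver cells keep the gene. The alleles carried by the WT mice are not given in the sources used here.

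The protein p53, encoded by Trp53, is held at a low level by the ubiquitin ligase Mdm2 and accumulates after DNA damage and other stress, when it switches on genes for cell-cycle arrest, apoptosis and its own feedback control. Its target p21, the product of Cdkn1a, binds CDK2 complexes and stops cells in G1, whereas p15 and p16, from Cdkn2b and Cdkn2a, block CDK4 and CDK6 and mark senescent cells. In normal liver most hepatocytes rest outside the cell cycle, and Cdkn1a is known to rise after liver injury and partial hepatectomy.

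The recovered reads summed to between 16137093 and 18110223 per library, whereas the size factors by which the authors divided them were 0.742 to 0.801 in WT livers and 1.23 to 1.41 in Vps15LKO libraries. Pik3r4, which encodes Vps15, had 508, 573 and 460 normalized counts in WT livers and 341, 362 and 355 in Vps15LKO livers. Its log2 fold change was −0.54 (SE 0.11, limma adjusted p = 0.00207) and turned to 0.19 after scaling each library to an equal read total. In fibroblasts the study reports that the recombined gene still yields a truncated Vps15 protein. Reads over the whole gene therefore do not measure the deletion. The 8 hepatocyte markers summed to between 2632300 and 3076046 normalized counts in WT livers and to between 771600 and 1178529 in Vps15LKO livers, with 7 called lower. The summed markers of all other cell types but endothelial cells were higher in every Vps15LKO than in every WT liver. They ran from 836 to 962 in WT and from 12023 to 23262 in Vps15LKO livers for 8 cholangiocyte markers, of which 8 were called higher, from 5284 to 6522 and from 18705 to 19780 for 10 macrophage markers (8 higher), from 6383 to 7121 and from 20252 to 22722 for 8 stellate cell markers (8 higher), from 139 to 167 and from 335 to 393 for 9 lymphocyte markers (7 tested, 5 higher), and from 13.5 to 21.2 and from 195 to 263 for 6 neutrophil markers, of which Ly6g and Mpo were at 0 in all WT livers. Of the neutrophil markers 3 were tested, and these as well as 3 of the 7 lymphocyte markers were under 20 normalized counts in all WT livers and entered the test through the Vps15LKO livers, so that their calls carry no information. The 8 endothelial markers summed to 6575 to 7129 in WT livers and 5628 to 7121 in Vps15LKO livers, with 5 called higher and 3 lower, which total-read scaling turned to 6 higher and none lower and quantile normalization to 5 and 1. Of all tested genes, 33.5% were called higher and 33.0% lower. These shares were 66.8% and 11.1% with total-read scaling and 30.4% and 37.6% with quantile normalization. With the latter, 9 macrophage markers were called higher and 1 lower, and 3 lymphocyte markers higher and 2 lower. The part of these cell types in the results below was not tested. In whole liver, fewer cells of a type and less RNA per cell cannot be told apart.

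Genes were tested with limma on log2(normalized count + 1), where a normalized count is the read count divided by the size factor of the library, and calls needed an adjusted p below 0.05 together with a fold change of 1.2 or more. SE stands for standard error. Fold changes given as log2 are on this scale unless another setting or a ratio of reads is named. For low genes their size depends on the 1 that is added. Of 15430 genes tested, 33.5% were called higher and 33.0% lower in Vps15LKO liver. With total-read scaling these shares were 66.8% and 11.1%, and the median over all genes moved up by 0.72 on the log2 scale. With quantile normalization they were 30.4% and 37.6%. Values within 1 library are free of this choice, and such values are given further on as ratios of reads.

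At its target genes p53 is known to bind a pair of 10-base sites, each with 3 purines, C, a pair of A or T, G and 3 pyrimidines. RefSeq promoter windows of GRCm38.p6, from 250 bases before to 50 bases after a start site, were given for 8 of the 10 genes, in 10 windows because Cdkn1a and Cdkn2a have a pair of starts each. Cdkn2a and Cdkn2b are not counted among p53 targets, but their windows were searched in the same way. No window was given for Trp53inp1 and Zmat3. The 10-base site has the same pattern on both strands, and 4 of these 10 windows held at least 1 exact copy, compared with 8.36% of all 32851 windows of this length. A pair of sites 0 or 1 base apart, with at most 3 mismatches and every central C and G kept, was found in 3 of the 10 windows, those of Cdkn1a, Ccng1 and Bax, compared with 2.82% of all windows. The 6-base E-box CACGTG, which reads the same on both strands, was in 2 of the 10 windows, those of Bax and Eda2r, and in 7.15% of all windows. The following 4 windows are shown because they hold a match to the p53 site, given in capitals. In the Bax window the E-box occurs at 2 further places, also in capitals, and it shares no base with the p53 sites.
Cdkn1a, upstream start, chr17:29090729-29091028, plus strand: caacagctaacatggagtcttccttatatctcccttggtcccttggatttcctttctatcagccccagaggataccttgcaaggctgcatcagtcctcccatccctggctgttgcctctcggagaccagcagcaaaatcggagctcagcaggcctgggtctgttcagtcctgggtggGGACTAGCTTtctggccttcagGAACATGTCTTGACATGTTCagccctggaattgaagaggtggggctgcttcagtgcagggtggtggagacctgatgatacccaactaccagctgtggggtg
Ccng1, chr11:40755237-40755536, minus strand: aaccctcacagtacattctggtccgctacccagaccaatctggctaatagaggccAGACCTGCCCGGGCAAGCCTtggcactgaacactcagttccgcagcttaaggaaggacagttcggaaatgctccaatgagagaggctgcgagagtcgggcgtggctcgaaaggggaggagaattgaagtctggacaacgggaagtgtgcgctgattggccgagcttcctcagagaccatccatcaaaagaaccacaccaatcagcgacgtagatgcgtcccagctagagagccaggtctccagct
Bax, chr7:45466849-45467148, minus strand: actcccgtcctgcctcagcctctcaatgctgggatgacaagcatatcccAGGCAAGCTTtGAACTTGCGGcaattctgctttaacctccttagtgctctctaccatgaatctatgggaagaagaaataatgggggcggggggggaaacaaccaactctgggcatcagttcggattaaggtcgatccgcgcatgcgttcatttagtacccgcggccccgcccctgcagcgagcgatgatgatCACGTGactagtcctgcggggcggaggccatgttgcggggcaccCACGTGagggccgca
Mdm2, chr10:117710709-117711008, minus strand: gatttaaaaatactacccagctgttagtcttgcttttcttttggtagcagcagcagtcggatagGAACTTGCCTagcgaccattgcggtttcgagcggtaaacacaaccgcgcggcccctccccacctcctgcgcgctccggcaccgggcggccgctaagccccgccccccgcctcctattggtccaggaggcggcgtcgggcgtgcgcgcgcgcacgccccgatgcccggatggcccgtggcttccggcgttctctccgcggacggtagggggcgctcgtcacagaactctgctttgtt
The paired sites were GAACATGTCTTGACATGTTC with 1 mismatch, beginning 51 bases before the upstream start of Cdkn1a, where a lone 10-base site lies further upstream, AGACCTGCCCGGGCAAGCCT with 1 mismatch, beginning 195 bases before the start of Ccng1, and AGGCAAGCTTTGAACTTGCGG with 1 base between the sites and 2 mismatches, beginning 201 bases before the start of Bax. Mdm2 held a lone 10-base site, and its well-known p53 sites lie in the first intron, outside the window. A match describes the letters and does not show that p53 was bound.

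Among the 9 genes tested, Cdkn2b and Cdkn1a had the largest log2 fold changes. Cdkn1a, on chromosome 17 from 29090976 to 29100727 of GRCm38, had 34.5, 40.0 and 115 normalized counts in WT livers, in the order of their replicate numbers, against 1037, 999 and 1231 in the Vps15LKO livers. All Vps15LKO livers lay far above all WT livers, and WT replicate 3 stood above the other WT livers. The means were 63.0 ± 44.7 and 1089 ± 125 (SD, n = 3 livers each), a log2 fold change of 4.30 (SE 0.39, limma adjusted p = 2.55e-05). Without WT replicate 3 the log2 fold change was 4.83. In comparison with all tested genes, 1.66% had a higher log2 fold change than Cdkn1a. Of its 3553 bp of exon, 273 bp overlap the unnamed gene AC167363.2 on the other strand, which had at most 3.75 normalized counts in WT against at most 29.2 in Vps15LKO livers. Whether the counting used strand is not given in the sources used here.

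Cdkn2b encodes p15, which in many cell types is induced by TGFβ. It lies on chromosome 4 from 89306299 to 89311039 and held 2, 2 and 0 reads in the WT libraries and 221, 155 and 249 reads in the Vps15LKO libraries. Vps15LKO livers thus had 169, 126 and 176 normalized counts, against at most 2.65 in WT livers. The ratio of the summed reads, corrected for the size factors, was 90.7, with a 95% interval from 35.2 to 334 that covers counting error alone (exact Clopper–Pearson on the share of reads). The log2 fold change was 6.06 (SE 0.50, limma adjusted p = 1.64e-05), but with so few WT reads its size follows the pseudocount, from 3.83 with a pseudocount of 10 to 7.44 with 0.1. It was 5.45 without WT replicate 3 and 4.803 with quantile normalization.

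Cdkn2a lies 11646 bp from Cdkn2b, from 89274471 to 89294653, and gives rise to both p16 and, from another start and in another reading frame, Arf, which holds Mdm2 in check. Reads counted per gene do not separate these products. It held 0, 0 and 1 reads in the WT libraries and 2, 8 and 15 reads in the Vps15LKO libraries. The groups did not overlap, but Vps15LKO replicate 1 was 1 read above WT replicate 3. No liver reached 20 normalized counts, so that Cdkn2a was not among the genes tested, though it was called higher when no filter was used. The ratio of the summed reads was 14.5, with a 95% counting interval from 2.37 to 596. Per kb of exon, the mean level in Vps15LKO liver was 5.30 ± 3.88 normalized counts (SD, n = 3) for Cdkn2a and 113 ± 19.6 for Cdkn2b.

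The other members of this family set the scale. Per kb of exon, Cdkn1b, which encodes p27, was the highest CDK inhibitor gene in WT liver with 104 ± 12.2 normalized counts (SD, n = 3), above Cdkn2c at 28.9 ± 2.51, Cdkn2d at 27.3 ± 5.58, Cdkn1c at 20.2 ± 3.05 and Cdkn1a at 17.7 ± 12.6. Below Cdkn1b, the range of mean ± SD of Cdkn1a overlapped those of Cdkn2c, Cdkn2d and Cdkn1c, and that of Cdkn2d overlapped those of Cdkn2c and Cdkn1c. In Vps15LKO liver, Cdkn1a came first with 307 ± 35.1 normalized counts per kb, followed by Cdkn1b at 125 ± 5.58 and Cdkn2b at 113 ± 19.6, whose SDs overlapped. Cdkn2c, which encodes p18, rose from 77.7 ± 6.73 to 210 ± 14.6 normalized counts (log2 fold change 1.43, adjusted p = 3.05e-05 from limma), and Cdkn1c, an imprinted gene that encodes p57, rose from 41.2 ± 6.21 to 91.6 ± 13.5 (log2 fold change 1.13, adjusted p = 0.000853). Cdkn1b and Cdkn2d were not called, at 0.27 on the log2 scale (adjusted p = 0.053) and 0.38 (adjusted p = 0.18). Cdkn1b was called higher by edgeR, with TMM, quantile and total-read scaling and without WT replicate 2 (0.36), whereas Cdkn2d was called higher with total-read scaling and had a log2 fold change of −0.24 with quantile normalization.

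**Figure D1:**
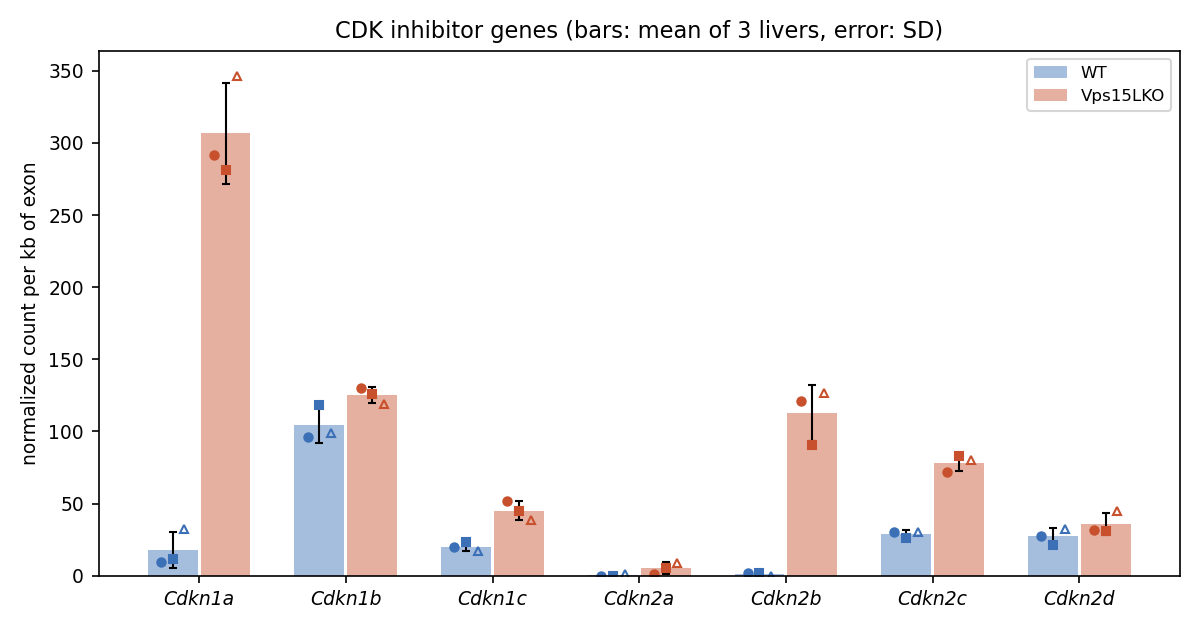
Normalized count per kb of exon (vertical axis) of the 7 CDK inhibitor genes (horizontal axis) in WT and Vps15LKO livers. Bars are means of 3 livers with SD, and the circle, square and open triangle are replicates 1, 2 and 3. Cdkn1a passes from 17.7 in WT to 307 in Vps15LKO liver and Cdkn2b from 1.24 to 113, whereas Cdkn1b has 104 and 125.

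The genes of p53 feedback differed little in comparison. Mdm2, on chromosome 10 from 117688875 to 117710758, had 467, 452 and 489 normalized counts in WT livers and 634, 635 and 575 in Vps15LKO livers. The groups did not overlap, and the means were 469 ± 18.7 and 615 ± 34.4 (SD, n = 3). The log2 fold change was 0.39 (SE 0.09, limma adjusted p = 0.00476). Ccng1 encodes cyclin G1, which recruits protein phosphatase 2A to Mdm2, and lies on chromosome 11 from 40748552 to 40755311. It had 899, 937 and 882 normalized counts in WT against 1093, 1141 and 1320 in Vps15LKO livers, a log2 fold change of 0.38 (SE 0.10, adjusted p = 0.00755). For Mdm2 and Ccng1, 33.7% and 33.9% of all tested genes had a higher log2 fold change, so both rises were modest among all genes. This rank is no distance from the call, which also rests on the adjusted p. Neither overlapped between genotypes, and both were called higher under every setting that was tried.

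Phlda3 encodes a small lipid-binding protein that competes with Akt at the membrane. It lies on chromosome 1 from 135766119 to 135769136 and had 22.5, 17.5 and 22.9 normalized counts in WT against 290, 300 and 410 in Vps15LKO livers. The groups lay far apart, at means of 21.0 ± 3.03 and 333 ± 66.7 (SD, n = 3), with a log2 fold change of 3.92 (SE 0.19, limma adjusted p = 1.32e-06). Among all tested genes, 2.35% had a higher log2 fold change.

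Bax encodes the protein that opens the outer mitochondrial membrane in apoptosis. On chromosome 7 from 45461697 to 45466898, it had 313, 212 and 263 normalized counts in WT against 593, 642 and 685 in Vps15LKO livers. Every Vps15LKO liver lay well above the highest WT liver. The log2 fold change was 1.30 (SE 0.15, limma adjusted p = 8.28e-05). Gm45808, a gene on the same strand, shares 192 bp of exon with Bax and had 674 to 811 normalized counts in WT livers and 395 to 486 in Vps15LKO livers. How reads in the shared part were counted is not given in the sources used here. Eda2r, a death-domain-free receptor of the TNF family for ectodysplasin A2, lies on chromosome X from 97333840 to 97377216. It had 7.96, 12.5 and 5.39 normalized counts in WT against 65.7, 60.8 and 89.8 in Vps15LKO livers, a log2 fold change of 2.97 (SE 0.33, adjusted p = 7.49e-05), which quantile normalization lowered to 1.97 and a pseudocount of 10 to 2.14. All WT livers were below 20 normalized counts, so Eda2r entered the test through the Vps15LKO livers, which lay well above the WT livers. Trp53inp1, whose product acts in apoptosis and binds the autophagy proteins of the LC3 family, lies on chromosome 4 from 11156431 to 11174379. It had 940, 702 and 1142 normalized counts in WT against 1571, 1341 and 1786 in Vps15LKO livers. The groups were close but did not overlap, and the log2 fold change was 0.77 (SE 0.18, adjusted p = 0.00481). Zmat3, on chromosome 3 from 32334792 to 32366014, encodes a zinc-finger protein that binds RNA, and had 109, 107 and 162 normalized counts in WT against 282, 281 and 343 in Vps15LKO livers. The groups did not overlap, although WT replicate 3 was higher than the other WT livers. Its log2 fold change was 1.28 (SE 0.18, adjusted p = 0.000291).

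**Figure D2:**
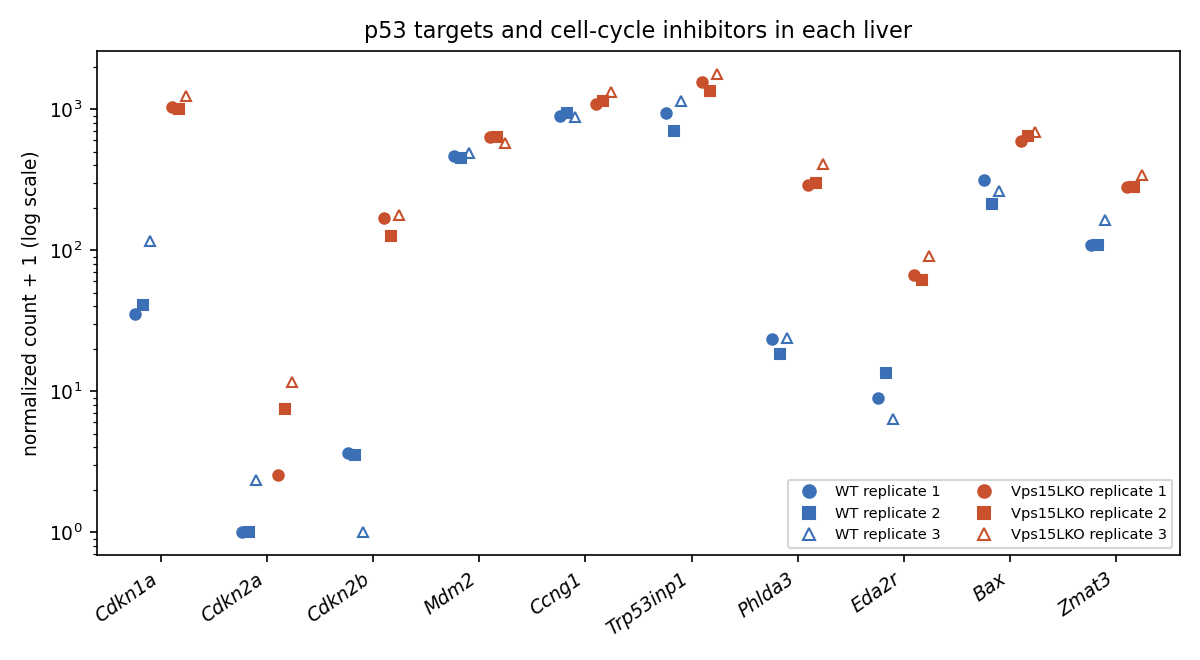
Normalized count + 1 on a log axis (vertical) of the 10 genes (horizontal) in each liver, WT in blue and Vps15LKO in red, with 1 symbol per replicate. For all 10 genes every red symbol lies above every blue symbol, narrowly for Cdkn2a, Mdm2, Ccng1 and Trp53inp1 and widely for Cdkn1a, Cdkn2b and Phlda3.

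In all, 9 of the 10 genes passed the filter of at least 20 normalized counts in at least 3 livers and were called higher in Vps15LKO liver, beside 33.5% of all tested genes. Cdkn2b and Eda2r passed the filter through the Vps15LKO livers alone, so these genes had to differ once they were tested, and Phlda3 reached 20 in 2 of the 3 WT livers. The other 6 tested genes had at least 20 normalized counts in every liver and were all called higher, beside 27.9% of the 13101 genes with this minimum. Every Vps15LKO liver lay above every WT liver for 10 of the 10 genes, compared with 36.4% of the genes tested, while for 36.8% every Vps15LKO liver lay below every WT liver. The 10 include Cdkn2a, which was not tested, and Cdkn2b and Eda2r, which had to differ. The sizes fell into separate ranges, from 2.97 to 6.06 on the log2 scale for Cdkn2b, Cdkn1a, Phlda3 and Eda2r, which had the lowest WT means of the tested genes among the 10, and from 0.38 to 1.30 for the 5 others. The WT mean enters both the level and the fold change, so this order is a description. A second order ran between the livers. Vps15LKO replicate 3 held the highest Vps15LKO value for 9 of the 10 genes, all but Mdm2, compared with 35.04% of all tested genes. As shares of reads the counts were 9 of 10 and 58.3%. WT replicate 3 held the highest WT value for 6 of the 10 genes, compared with 32.9% of all tested genes, and as shares of reads for 6 of 10 compared with 44.3%. In Vps15LKO replicate 3, 8 of 8 cholangiocyte markers had their highest Vps15LKO value, and the summed hepatocyte markers were the lowest. The call of each of the 9 genes was kept when this or any other liver was left out. The filter was not applied again without that liver, so for Cdkn2b and Eda2r the kept calls carry no information.

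The levels ordered differently from the fold changes. Per kb of exon, Ccng1 was highest in WT liver with 258 ± 8.04 normalized counts (SD, n = 3), followed by Bax at 167 ± 31.9 and Trp53inp1 at 143 ± 33.998, which overlapped, and Mdm2 at 92.3 ± 3.68. Cdkn1a at 17.7 ± 12.6, Phlda3 at 13.5 ± 1.94 and Zmat3 at 11.02 ± 2.71 overlapped, whereas Eda2r had 1.46 ± 0.61. In Vps15LKO liver, Bax came first with 406 ± 29.2, followed by Ccng1 at 337 ± 34.1 and Cdkn1a at 307 ± 35.1, which overlapped, then by Trp53inp1 at 242 ± 34.3, which overlapped with Cdkn1a, and by Phlda3 at 214 ± 42.8, which overlapped with Trp53inp1. Mdm2 at 121 ± 6.77 and Cdkn2b at 113 ± 19.6 overlapped.

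**Figure D3:**
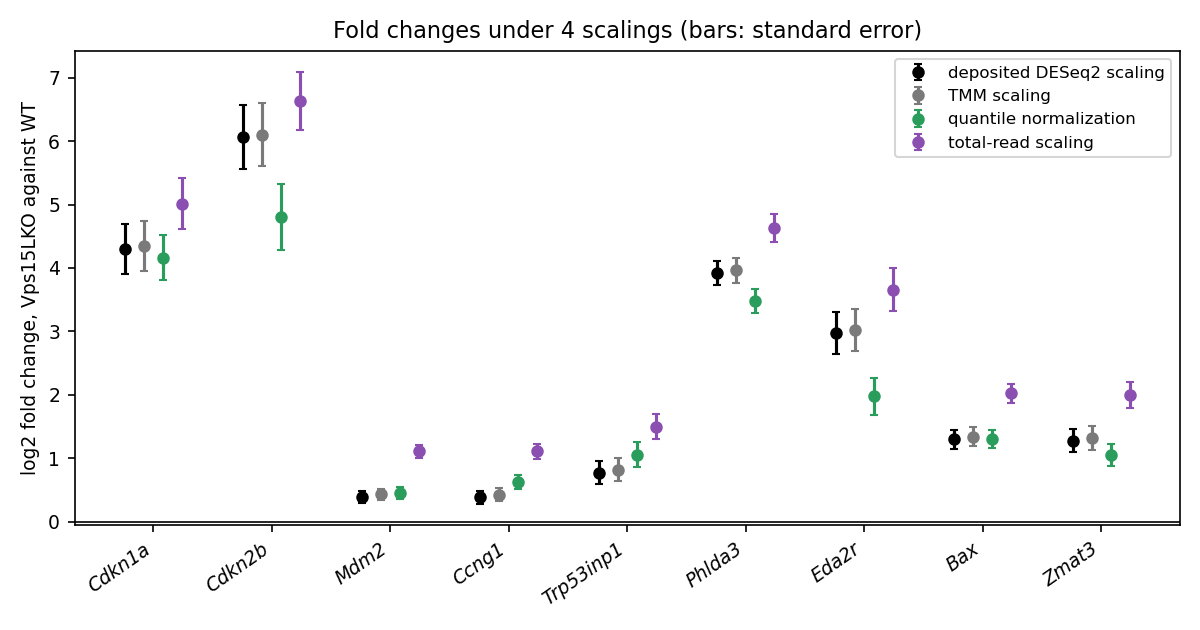
Log2 fold change between Vps15LKO and WT liver (vertical axis) with its standard error for the 9 tested genes (horizontal axis) under the deposited, TMM, quantile and total-read scalings. Every point lies above 0, and total-read scaling lifts Mdm2 from 0.39 to 1.11 and Ccng1 from 0.38 to 1.11.

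Trp53 itself was higher in Vps15LKO liver, with 644, 595 and 616 normalized counts in WT against 1182, 1235 and 1265 in Vps15LKO livers (log2 fold change 0.99, SE 0.08, adjusted p = 1.78e-05 from limma). Its reads served as the denominator of 9 ratios within each library, in which the scaling of the library cancels out, and a 10th ratio set Cdkn1a against Mdm2. Cdkn1a had 0.0535, 0.0672 and 0.186 reads per read of Trp53 in WT libraries and 0.877, 0.809 and 0.974 in Vps15LKO libraries. Per read of Mdm2, Cdkn1a had 0.0739, 0.0884 and 0.234 reads in WT and 1.64, 1.57 and 2.14 in Vps15LKO libraries, a difference of 3.94 on the log2 scale. The ratio to Trp53 was higher in all Vps15LKO than in all WT libraries for Cdkn1a, Phlda3, Eda2r and Bax, by 3.34, 2.99, 2.14 and 0.31 on the log2 scale. It was lower in all Vps15LKO libraries for Mdm2, which had 0.760 ± 0.0350 reads per read of Trp53 in WT and 0.502 ± 0.0422 in Vps15LKO libraries (SD, n = 3), for Ccng1, with 1.47 ± 0.0956 and 0.964 ± 0.0690, and for Mdm4, the relative of Mdm2 that masks the activation domain of p53, with 0.829 ± 0.0715 and 0.427 ± 0.0258. Only 21.2% of all tested genes had a higher log2 fold change than Trp53, so a fall relative to Trp53 was common among all genes. The ratios of Zmat3 and Trp53inp1 overlapped between genotypes, with differences of 0.29 and −0.22 on the log2 scale. An exact two-sided permutation test gave p = 0.1 for each of the 8 ratios without overlap (0.125 after Benjamini-Hochberg adjustment over the 10 ratios), the smallest value that 3 livers against 3 allow, and p = 0.3 and 0.4 for Zmat3 and Trp53inp1 (0.333 and 0.4 after adjustment), so that none of these ratios could pass a threshold of 0.05.

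**Figure D4:**
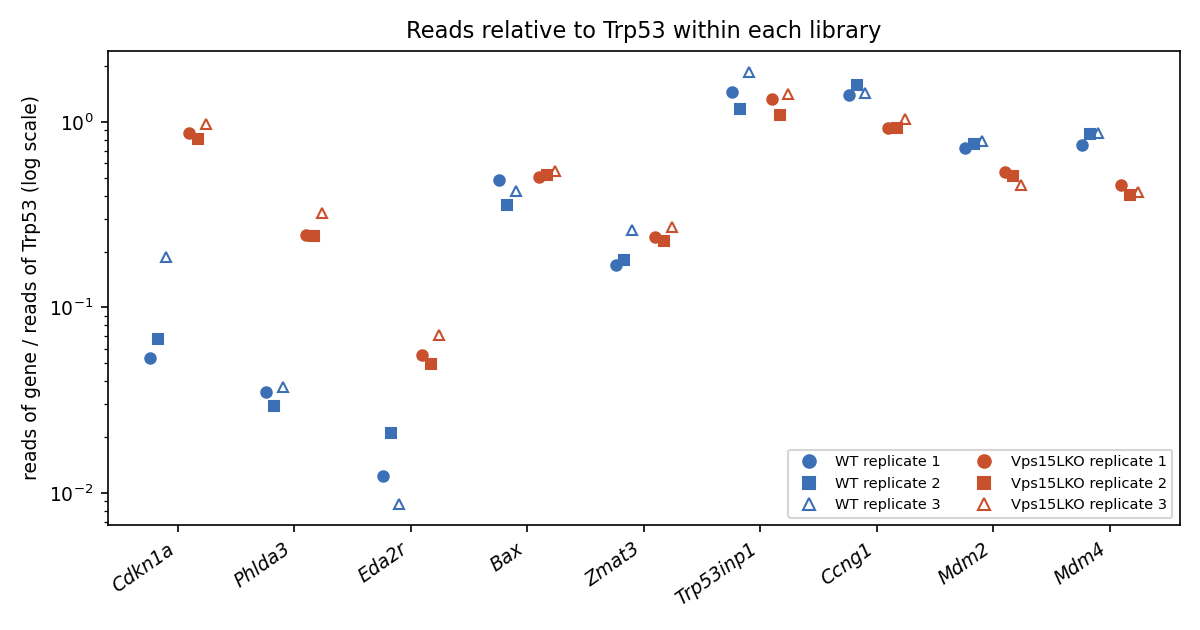
Reads of a gene divided by reads of Trp53 in the same library, on a log axis (vertical), for 9 genes (horizontal), WT in blue and Vps15LKO in red with 1 symbol per replicate. Relative to Trp53, the Vps15LKO symbols of Cdkn1a (0.809 to 0.974), Phlda3 and Eda2r lie above the WT symbols, and those of Mdm2, Ccng1 and Mdm4 below.

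To place the 10 genes in their pathway, textbook lists of other p53 genes were read from the same comparison. Of 48 such genes, 44 were tested, 20 were called higher (45.5%, compared with 33.5% of all genes) and 10 lower (22.7%, compared with 33.0%). With total-read scaling 36 were higher and 2 lower, beside 66.8% and 11.1% of all tested genes, and with quantile normalization 16 and 9, beside 30.4% and 37.6%. Of the 44 genes, 5 (Chek1, Tnfrsf10b, Pmaip1, Psrc1 and Ak1) were under 20 normalized counts in all WT livers and entered the test through the Vps15LKO livers, so they had to come out higher. With at least 20 in every liver, 37 genes were tested, and 13 (35.1%) were called higher and 10 (27.0%) lower, beside 27.9% and 36.2% of 13101 genes tested in this way. Among the 12 tested genes of the p53 circuit, 3 were called higher and 3 lower, and with total-read scaling 10 were higher and 1, Cop1, lower. Chek1, a kinase of the DNA damage checkpoint, rose from 10.5 ± 4.81 to 38.9 ± 6.33 normalized counts (SD, n = 3, log2 fold change 1.89, adjusted p = 0.002 from limma). It was 1.28 with a pseudocount of 10 and 0.85 with quantile normalization. Mdm4 had 512 ± 29.1 and 523 ± 19.7 normalized counts and was not called (log2 fold change 0.03, adjusted p = 0.769), but it was called higher with total-read scaling (0.76). The ubiquitin ligase gene Cop1, whose product can degrade p53, fell by 0.99 on the log2 scale (adjusted p = 0.000167). Usp7, which encodes a deubiquitinase of Mdm2 and p53, had a log2 fold change of −0.43 (adjusted p = 0.0043) but was called higher, at 0.30, with total-read scaling and was not called with quantile normalization (−0.18, adjusted p = 0.115).

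Among 12 apoptosis targets, 5 (41.7%) were called higher, 2 (16.7%) lower and 5 neither way, beside 33.5% and 33.0% of all tested genes. With total-read scaling 9 of the 12 were higher and none lower, beside 66.8% and 11.1%. Under quantile normalization 4 were higher and 3 lower. Tnfrsf10b, a death receptor for TRAIL, had 1.33, 4.996 and 10.8 normalized counts in WT against 170, 182 and 175 in Vps15LKO livers (log2 fold change 5.01, adjusted p = 4.87e-05 from limma). It was 3.61 with a pseudocount of 10, 3.95 with quantile normalization and 4.39 without WT replicate 1. Pmaip1, which encodes the BH3-only protein Noxa, had 5.30 to 8.74 in WT livers and 47.0 to 56.6 in Vps15LKO livers (2.75, adjusted p = 4.67e-05), with 1.87 at a pseudocount of 10 and 1.63 with quantile normalization. Ei24, a gene of the endoplasmic reticulum membrane, had a log2 fold change of −0.97 (adjusted p = 0.000146) and lost its call with total-read scaling (−0.25). Perp, which encodes a desmosome protein, had −0.69 (adjusted p = 0.000629), which turned to 0.03 with total-read scaling. Among 20 tested targets for arrest, repair and metabolism, 12 (60%) were called higher and 5 (25%) lower, and with total-read scaling 17 and 1, beside the same shares of all genes. Sfn, the gene of 14-3-3 sigma, which holds cells in G2, had 23.9, 27.5 and 29.7 normalized counts in WT against 1096, 1002 and 1166 in Vps15LKO livers (5.28, adjusted p = 8.39e-08). Psrc1, which encodes a spindle protein and is also expressed in dividing cells, had at most 6.63 in WT livers and 202 to 323 in Vps15LKO livers (6.33, adjusted p = 4.85e-05). The log2 fold change of Psrc1 was 6.996 without WT replicate 1 and 5.53 without WT replicate 2, ran from 4.31 with a pseudocount of 10 to 7.63 with 0.1, and was 5.34 with quantile normalization. Gls2, the liver glutaminase, fell from 8093 ± 1621 to 1463 ± 410 (SD, n = 3), by 2.49 on the log2 scale (adjusted p = 2.8e-05), and stayed lower with total-read scaling at −1.76. Fdxr, which encodes a mitochondrial electron donor for steroid and iron-sulfur enzymes, had −0.61 (adjusted p = 0.000828), which turned to 0.11 with total-read scaling.

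**Figure D5:**
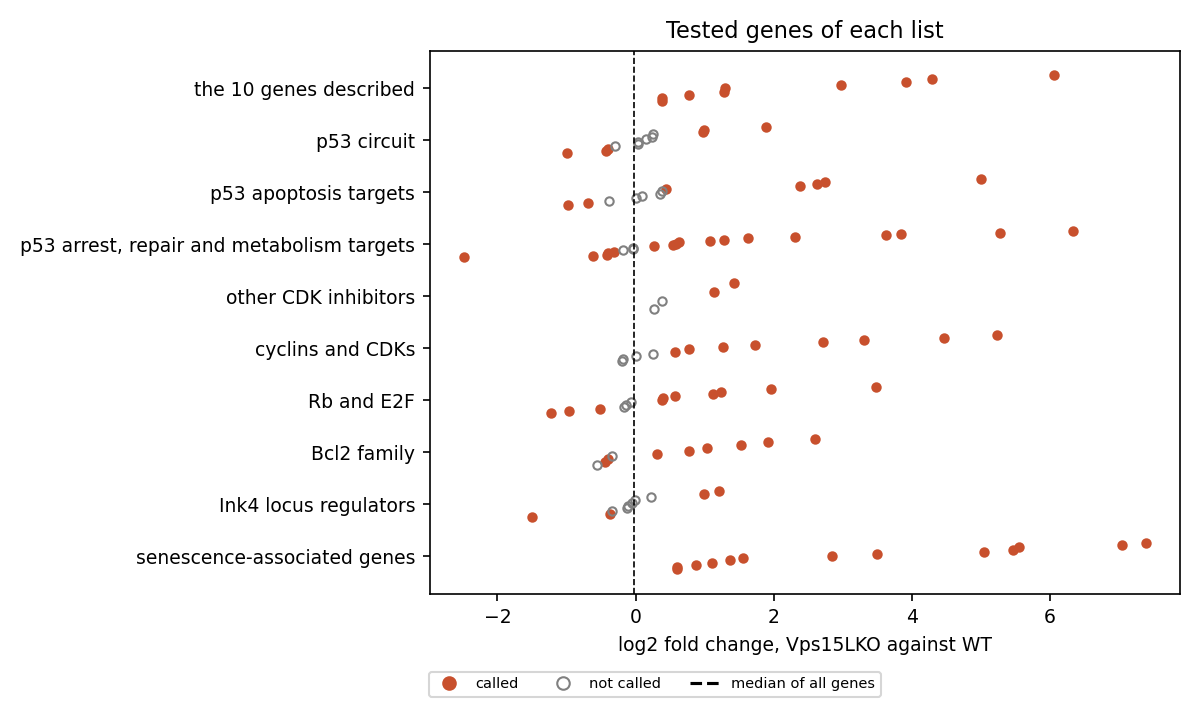
Log2 fold change between Vps15LKO and WT liver (horizontal axis) of the tested genes of 10 lists (vertical axis), filled red where called and open where not called. The dashed line is the median of all tested genes at −0.02. Genes of the circuit and Ink4 regulator lists lie on both sides of this line, and genes under 20 normalized counts in all WT livers, such as Chek1, Psrc1, E2f7, Ccl2 and Mmp12, were tested because they were high in Vps15LKO livers.

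The counts of the next lists stand beside 33.5% of all tested genes called higher and 33.0% lower, beside 66.8% and 11.1% where total-read scaling is named, and beside 30.4% and 37.6% where quantile normalization is named. Of 12 cyclin and CDK genes, 8 (66.7%) rose and 4 were not called. With total-read scaling 12 were called higher, and with quantile normalization 8 higher and 1 lower. Ccnb1, the cyclin of mitotic entry, had 5.30, 0 and 20.2 normalized counts in WT against 169 to 223 in Vps15LKO livers (log2 fold change 5.24, adjusted p = 0.000953 from limma). Its log2 fold change was 4.06 without WT replicate 2 and 6.26 without WT replicate 3, and ran from 3.599 with a pseudocount of 10 to 6.43 with 0.1, with 4.33 under quantile normalization and 4.57 and 4.53 by edgeR and DESeq2. Ccnb2 had 10.6, 8.74 and 22.9 in WT against 265 to 334 in Vps15LKO livers (4.46, adjusted p = 8.28e-06), with 3.76 at a pseudocount of 10 and 3.86 under quantile normalization. Of 13 Rb and E2F genes, 7 (53.8%) were called higher and 3 (23.1%) lower. Total-read scaling turned this to 10 higher and none lower, and quantile normalization to 7 higher and 5 lower. The largest rise was that of E2f7, with at most 10.8 normalized counts in WT against 35.1 to 48.6 in Vps15LKO livers (3.49, adjusted p = 0.0039). E2f7 was under 20 in all WT livers and entered the test through the Vps15LKO livers, and its log2 fold change ran from 1.87 with a pseudocount of 10 to 4.70 with 0.1, and was 2.21 with quantile normalization, 2.52 without WT replicate 1 and 4.30 without WT replicate 3. Rbl1, the gene of p107, rose by 1.97 (adjusted p = 0.000113). E2f8 (−1.22, adjusted p = 0.0175) had overlapping groups, and Rbl2, the gene of p130 (−0.97, adjusted p = 5.7e-05), did not overlap. Both lost their calls with total-read scaling, and E2f8 also without WT replicate 1 (adjusted p = 0.0512) and without Vps15LKO replicate 3 (adjusted p = 0.0614). Of 10 tested genes of the Bcl2 family, which oppose or assist Bax, 6 (60%) were called higher and 2 (20%) lower. With total-read scaling 7 were higher and none lower, and with quantile normalization 6 higher and 3 lower. The antiapoptotic Bcl2 rose by 2.60 (adjusted p = 6.4e-05) and the proapoptotic Bcl2l11, which encodes Bim, by 1.92 (adjusted p = 2.48e-06). The proapoptotic Bad (−0.44, adjusted p = 0.0265) and the antiapoptotic Bcl2l2 (−0.39, adjusted p = 0.0112) were lower, but had 0.29 and 0.33 with total-read scaling. Bad was not called without WT replicate 1 (adjusted p = 0.0815), Vps15LKO replicate 1 (0.0855) or Vps15LKO replicate 2 (0.0807).

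Regulators of the Ink4 locus, which holds Cdkn2a and Cdkn2b, were called in both directions. Of 10 tested genes, 2 (20%) were called higher, 2 (20%) lower and 6 neither way, beside 33.5% and 33.0% of all tested genes. With total-read scaling 8 were higher and 1 lower, beside 66.8% and 11.1%. Ezh2, the methyltransferase of a Polycomb repressive complex, rose from 82.4 ± 4.49 to 166 ± 12.8 normalized counts (SD, n = 3, log2 fold change 0.997, adjusted p = 0.000199 from limma), and Tbx2 rose by 1.21 (adjusted p = 0.000183). Tbx3, a T-box repressor of Arf, fell from 643 ± 114 to 241 ± 114 (−1.49, adjusted p = 0.00173), and Ring1 had −0.37 (adjusted p = 0.0342), which turned to 0.36 with total-read scaling. Ring1 was not called with TMM scaling (adjusted p = 0.0509) or when WT replicate 1 (0.0997), WT replicate 2 (0.115), Vps15LKO replicate 1 (0.0699), 2 (0.0608) or 3 (0.099) was left out. Of 15 genes associated with senescent cells and their secretions, 13 were tested and 13 were called higher, beside 33.5% of all tested genes, but 5 of these, among them Ccl2 and Mmp12, were under 20 in all WT livers and entered the test through the Vps15LKO livers. With quantile normalization 11 were called higher, beside 30.4% of all tested genes. The list, which includes Lmnb1, was not sorted by the direction a gene takes in senescent cells, so its count does not measure senescence. Ccl2, a chemokine for monocytes, had 17.2, 12.5 and 16.2 normalized counts in WT against 2448, 1756 and 2253 in Vps15LKO livers (7.04, adjusted p = 8.39e-08), and Mmp12, a macrophage elastase, had at most 13.3 in WT livers and 1075 to 1972 in Vps15LKO livers (7.39, adjusted p = 9.75e-07). With a pseudocount of 10 their log2 fold changes were 6.41 and 6.39. The summed macrophage and cholangiocyte markers were also higher in every Vps15LKO liver, as given above, and their part in these values was not tested.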

How the data were processed

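Livers of 3 WT and 3 Vps15LKO animals were sequenced after poly(A) selection with a kit that marks strand. Per the methods of the study, SOAPnuke removed poor reads, HISAT2 aligned the rest to GRCm38, and featureCounts assigned them to genes. The authors then normalized the counts, with 1 size factor per library as the values show. Versions and the strand and multi-mapping settings are not given in the sources used here. The deposited values are this signal, normalized counts for 56305 genes. Whole reads were recovered, as 100% of the nonzero values equalled a whole number of reads within 0.001. Symbols, exon lengths and coordinates came from GENCODE M21, which matched 55141 genes, and promoters from RefSeq.

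The filter asked for 20 or more normalized counts in 3 or more of 6 livers, and the 15430 genes that passed entered limma 3.58.1 (trend, R 4.3.3) with p-values adjusted by Benjamini-Hochberg. The test was tested on simulated data, in which few genes changed, evenly in both directions, and the size factors were known. It therefore does not bear on the choice of scaling. The alternatives were pseudocounts of 0.1 and 10, no filter and a stricter filter, total-read, TMM and quantile scaling, edgeR 4.0.16 (quasi-likelihood) and DESeq2 1.42.0 on the recovered reads, each liver left out, and replicate number as a block. On the recovered reads edgeR called 10205 genes and DESeq2 9951. The methods count each animal as 1 replicate, and p-values measure the spread between 3 livers a group. Intervals cover counting error alone. The genes described, the pathway lists and the alternatives were chosen with earlier results of these data known. Named genes are the 10 genes, Pik3r4, Trp53, Mdm4, the other CDK inhibitors and, from each list, up to 2 called genes with the largest rise and up to 2 with the largest fall. Promoters were searched with Python 3.11.15.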

Additional observations from a re-analysis of the deposited data

How the results depend on the processing

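The calls and directions of the 9 tested genes among the 10 held under all settings in which they were tested (141 of 141 values). Without a filter Cdkn2a was called higher too, and 9 were called higher and 0 lower whichever liver was left out. The values of Cdkn2b and Eda2r add nothing to these counts, as both genes passed the filter through the Vps15LKO livers alone. This filter was not applied again when a liver was left out. At a minimum of 20 normalized counts in every liver, Cdkn2b, Phlda3 and Eda2r were not tested. The number of p53 pathway genes called higher was 13 with this minimum and 36 with total-read scaling, against 20, and that called lower was 2 with total-read scaling, against 10. With 1 liver left out these numbers ran from 15 to 19 and from 8 to 10, and the number of all genes called from 9098 to 10222. Under total-read scaling the sign changed for Pik3r4 (0.19), Usp7 (0.30), Perp (0.033), Fdxr (0.11), Bad (0.29), Bcl2l2 (0.33) and Ring1 (0.36), as this scaling moves the median of all tested genes up by 0.72. Cdkn2d changed sign with quantile normalization (−0.24) and Mdm4, not called either, ran from −0.011 without WT replicate 1 to 0.071 without WT replicate 3.

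The highest correlation between the deviations of WT and Vps15LKO livers with the same replicate number was 0.0485, so the numbers were not taken to pair the livers. With replicate number as a block 10048 genes were called, and 9 of the 10 genes were called higher. At 2 to 15 reads, depth limits what can be said of Cdkn2a.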

Other observations

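The nearest protein-coding genes on each side of the 10 genes were looked up after the results were known. Of 18 such neighbours that are not themselves among the 10, 12 were tested, 3 were called higher and 5 lower by limma, beside 33.5% and 33.0% of all tested genes. Beside the Ink4 locus, Mtap, the enzyme that salvages methylthioadenosine, lies 93390 bp from Cdkn2a and had 345, 348 and 399 normalized counts in WT against 458, 478 and 493 in Vps15LKO livers (log2 fold change 0.39), and Dmrta1, on the side of Cdkn2b, had at most 3.98 normalized counts in any liver. These neighbours were chosen after their values were seen.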
